A study of Mus musculus with 4 samples.

Results

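The genes described here are 7 enzymes of cholesterol synthesis named by symbol: Hmgcs1, Idi1, Fdft1, Sqle, Lss, Cyp51 and Dhcr7. They were found by symbol in an RNA-seq table of mouse lumbar spinal cord that lists 18674 gene names, of which 12987 had a mean of at least 1 RPKM (reads scaled to transcript length and library size) over the 4 libraries. Of the 7, 6 have a row, 1 row each, and all 6 passed that floor. Hmgcs1, the synthase that makes HMG-CoA, has no row under that symbol, so its expression was not analysed here and counts below are out of 6.

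The libraries came from WT mice given vehicle (PBS), WT mice given spermidine (SD, a natural polyamine; WT + SD), G93A mice given vehicle, and G93A + SD mice, with 1 library per condition. G93A mice carry a transgene for mutant human SOD1, are of the G93A H1 high-expresser strain on a B6/SJLF1 background, and develop motor neuron disease as a model of amyotrophic lateral sclerosis. Per the sample labels, SD or PBS was given 4 times a week for 30 days, spinal cords were collected when the mice were 100 days old, and how many animals went into a library is not given in the sources used here. With 1 library per condition there is no replicate spread, no test was run, and every difference below is between single libraries, where condition and animal cannot be told apart.

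Cholesterol is built from acetyl-CoA through mevalonate, farnesyl pyrophosphate, squalene and lanosterol, and the enzymes of this route share control by the transcription factor SREBP2, which is released from the endoplasmic reticulum when its sterol content is low. The spinal cord makes nearly all of its own cholesterol, because lipoproteins of the blood do not cross the barrier around the central nervous system. Oligodendrocytes use it for myelin, astrocytes supply it to neurons on apolipoprotein E, and each of these cell types can express the enzymes.

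The 6 enzymes were lower in G93A than in WT libraries with either treatment, and lowest in G93A + SD. Of all 12987 names, 5665 were lower in G93A with vehicle and 5834 with SD, by any amount. For G93A vehicle against WT vehicle, the median log2 fold change of the 6 was -0.62, and 3 of them were at least 1.5-fold lower, as were 4.34% of all 12987 names. For G93A + SD against WT + SD, the median was -0.96 and 5 of 6 were at least 1.5-fold lower, against 7.85% of names. WT + SD and WT vehicle were close, with a median of -0.02 and none of the 6 past 1.5-fold, against 1.16% of names 1.5-fold lower. G93A + SD was below G93A vehicle for all 6 (median -0.38), and for 6216 of the 12987 names. Again none of the 6 was past 1.5-fold, against 0.932% of names 1.5-fold lower. Log2 fold changes here are on the log2(RPKM + 0.1) scale, and 1.5-fold was the size required for counting a gene.

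Because the 6 enzymes followed a common order over the libraries, the sequence before their starts is shown for the 4 of them that have an entry in the RefSeq table (build GRCm38.p6). Hmgcs1, which has no expression values, also has an entry, and its matches are given without its sequence. Cyp51 (chr5:4081145-4104746, minus strand, 10 exons) makes the demethylase that acts on lanosterol. Dhcr7 (chr7:143823145-143848410, plus strand, 9 exons) makes a reductase of the final steps to cholesterol. Lss (chr10:76531588-76557138, plus strand, 22 exons) makes lanosterol synthase, which closes the sterol rings. Idi1 (chr13:8885501-8892451, plus strand, 5 exons) makes the isomerase that turns isopentenyl pyrophosphate into its partner building block. The other members are Sqle (chr15:59315077-59331192, plus strand, 11 exons), squalene epoxidase, and Fdft1 (chr14:63145150-63179578, minus strand, 10 exons), squalene synthase. Gene positions are those of the GENCODE M21 annotation of GRCm38. Each line below runs 5′ to 3′ on the gene's strand and ends at the base before the gene's first annotated exon, within the 250 bases before the RefSeq start. Capitals mark 2 motifs, CCAAT (or ATTGG on the other strand), the core of NF-Y sites, and GGGCGG (or CCGCCC), the core of Sp1 sites. The stretches are Cyp51 chr5:4104747-4104947 (minus strand), Dhcr7 chr7:143822917-143823144, Lss chr10:76531355-76531587 and Idi1 chr13:8885356-8885500 (each plus strand).
Cyp51: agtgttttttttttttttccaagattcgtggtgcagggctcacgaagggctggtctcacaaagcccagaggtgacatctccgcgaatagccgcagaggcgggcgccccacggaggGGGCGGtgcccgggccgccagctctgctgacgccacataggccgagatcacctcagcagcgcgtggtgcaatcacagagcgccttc
Dhcr7: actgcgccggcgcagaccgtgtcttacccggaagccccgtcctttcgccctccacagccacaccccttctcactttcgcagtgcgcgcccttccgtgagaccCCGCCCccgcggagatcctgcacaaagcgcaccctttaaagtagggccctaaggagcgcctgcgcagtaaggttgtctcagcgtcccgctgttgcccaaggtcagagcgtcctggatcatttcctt
Lss: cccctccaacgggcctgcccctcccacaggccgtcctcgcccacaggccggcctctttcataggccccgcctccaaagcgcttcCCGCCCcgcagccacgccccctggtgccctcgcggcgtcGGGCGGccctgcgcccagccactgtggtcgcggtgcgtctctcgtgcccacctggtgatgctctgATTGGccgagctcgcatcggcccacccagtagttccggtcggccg
Idi1: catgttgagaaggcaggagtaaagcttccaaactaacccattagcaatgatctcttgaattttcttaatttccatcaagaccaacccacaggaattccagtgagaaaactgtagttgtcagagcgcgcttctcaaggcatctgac

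Over the full 250 bases before the start and on both strands, GGGCGG was found in the windows of all 4 of these members, and in 32.7% of the 32851 windows of the table. It lay 135 bases before the start in Cyp51, 148 in Dhcr7, 166 and 127 in Lss, and 69 in Idi1. CCAAT was found in 3 of the 4 (62 bases before the start in Lss, 29 in Cyp51, 45 and 14 in Idi1), and in 33.8% of all windows. The CCAAT matches of Cyp51 and Idi1 and the GGGCGG match of Idi1 lie in bases that the annotation places in a first exon, so they are not in the lines above, and the Idi1 line has no capitals. TCACNCCAC, the only spelling searched of the sterol regulatory element bound by SREBP, was found in none of the 4 and in 1.05% of all windows. The window of Hmgcs1 holds it, as TCACCCCAC 137 bases before the start, with CCAAT matches at 237, 176 and 45 bases and GGGCGG matches at 92 and 24 bases. CACGTG, an E-box, was found in none of the 4 windows and in 6.02% of all. Dhcr7 has 3 starts in the table, and the one nearest its annotated transcript was used, while the shares count every start of every gene. Its other starts have CACGTG at 164 bases before one, and CCAAT at 85 and 49 bases and GGGCGG at 187, 171 and 20 bases before the other. For Lss, the bases after the RefSeq start were not found as an unbroken stretch in the annotated transcript. Whether that start is the one of the annotated transcript was therefore not settled. These matches describe letters in a window and were not related to the values by any test.

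Among the members, Sqle and Cyp51 were the most abundant and Idi1 the least. Levels per kilobase fell into the order Sqle, Cyp51, Fdft1, Dhcr7, Lss and Idi1 in WT vehicle, WT + SD and G93A vehicle. In G93A + SD, Fdft1 (22.8 RPKM) stood above Cyp51 (21.4 RPKM). The highest member was 6.86 times the lowest in WT vehicle and 8.37 times in G93A vehicle, and with SD these ratios were 6.70 and 7.86. Summed over the 6, the level with vehicle and with SD was 159.8 and 157.6 RPKM in WT and 111.7 and 87.2 RPKM in G93A mice. Because these are bulk tissue values, fewer cells of a type and less RNA per cell cannot be told apart.

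**Figure D1:**
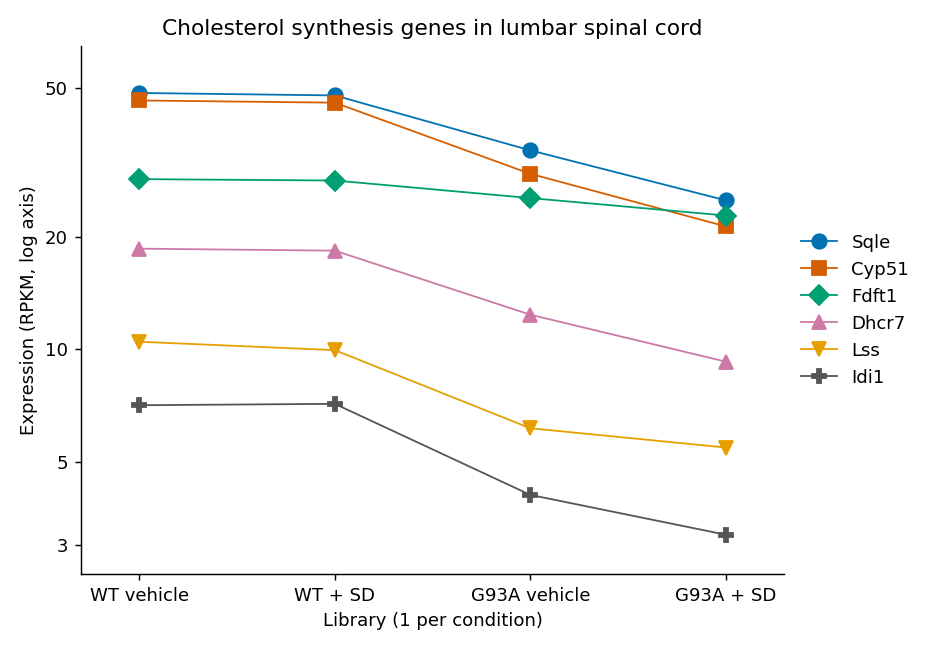
Expression of the 6 members (RPKM, log axis) in each of the 4 libraries, 1 point per library with no error bar because there is 1 library per condition. Lines join the points of a gene as a guide to the eye. The WT libraries are close for each gene, and each gene is lowest in G93A + SD, from 3.19 RPKM for Idi1 to 25.1 RPKM for Sqle.

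Idi1 acts at the end of the mevalonate arm of the route. Here and below, values come in pairs, vehicle first and SD second. Its level was 7.09 and 7.15 RPKM in WT and 4.08 and 3.19 RPKM in G93A mice. Both WT libraries were above both G93A libraries. G93A vehicle was 1.72-fold lower than WT vehicle (log2 fold change -0.78), and G93A + SD was 2.20-fold lower than WT + SD (-1.14), the largest difference of any member in either comparison of genotypes. It is the member with the fewest estimated fragments, from 373 in G93A + SD to 828 in WT + SD. Of its 2975 windows of 53 bases, the read length, 903 (30.4%) also occur in other annotated genes, most of them in Gm13502, so part of its signal could be shared. Its paralog Idi2 was at most 0.0424 RPKM in any library.

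Fdft1 joins a pair of farnesyl pyrophosphate molecules into squalene, the first step that leads only to sterols. Its level was 28.6 and 28.3 RPKM in WT and 25.4 and 22.8 RPKM in G93A mice. It had the smallest differences between genotypes of the 6, in the same direction as the others. G93A vehicle was 1.12-fold lower than WT vehicle (log2 fold change -0.17) and G93A + SD 1.24-fold lower than WT + SD (-0.31), neither past 1.5-fold. The 3′ part of Fdft1 overlaps Ctsb, a lysosomal protease gene on the opposite strand, and 29.9% of its 53-base windows also occur in other genes, most of them in Ctsb. Ctsb was 133 and 137 RPKM in WT and 438 and 522 RPKM in G93A mice. Whether the counting used strand is not stated, and the part of Ctsb reads in the Fdft1 values was not tested.

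Sqle adds oxygen to squalene and is one of the slow steps of the route. Its level was 48.6 and 47.9 RPKM in WT and 34.1 and 25.1 RPKM in G93A mice. All of its windows are its own. G93A vehicle was 1.42-fold lower than WT vehicle (log2 fold change -0.51), short of 1.5-fold. G93A + SD was 1.91-fold lower than WT + SD (-0.93).

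Lss was 10.5 and 9.96 RPKM in WT and 6.15 and 5.46 RPKM in G93A mice. It was 1.69-fold lower in G93A vehicle than in WT vehicle (log2 fold change -0.76) and 1.81-fold lower in G93A + SD than in WT + SD (-0.85). These 2 differences were the closest to each other of any member. An antisense gene, 4930483K19Rik, holds 4.16% of its windows.

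Cyp51 was 46.4 and 45.8 RPKM in WT and 29.5 and 21.4 RPKM in G93A mice. It was 1.57-fold lower in G93A vehicle than in WT vehicle (log2 fold change -0.65) and 2.14-fold lower in G93A + SD than in WT + SD (-1.10). Cyp51 and Idi1 were the members more than 2-fold lower in G93A + SD than in WT + SD. Akap9, on the opposite strand, is the gene that shares most of the 2.96% of Cyp51 windows found elsewhere, and had log2 fold changes of -0.20 and -0.24 between genotypes with vehicle and with SD.

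Dhcr7 was 18.6 and 18.4 RPKM in WT and 12.4 and 9.27 RPKM in G93A mice. Its log2 fold change of -0.58 in G93A vehicle against WT vehicle fell just short of 1.5-fold, and it passed 1.5-fold without a pseudocount. In G93A + SD it was 1.97-fold lower than in WT + SD (-0.98). All of its windows are its own.

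With vehicle, Idi1, Lss and Cyp51 were thus the members at least 1.5-fold lower in G93A, and with SD all but Fdft1 were. No member was 1.5-fold higher in G93A, while 13.1% of all names were with vehicle and 15.8% with SD. The median log2 fold change over all names was 0.05 in both, so the members stood on the less common side. These 2 comparisons share no library, but each comparison of SD with vehicle shares a library with each of them.

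The members were nearly level between the WT libraries. The log2 fold change of WT + SD against WT vehicle ran from -0.07 (Lss) to 0.01 (Idi1). Over the 8847 names whose mean was 5 RPKM or more, the median absolute log2 fold change in this comparison was 0.0709, and 51.5% of names were within the 0.0738 of the member that differed most. In G93A mice, the same comparison gave lower values in G93A + SD for every member. The log2 fold changes were -0.34 for Idi1, -0.15 for Fdft1, -0.44 for Sqle, -0.17 for Lss, -0.47 for Cyp51 and -0.41 for Dhcr7. The 90th percentile of the absolute log2 fold change was 0.281 in this comparison over names of at least 5 RPKM, so Idi1, Sqle, Cyp51 and Dhcr7 lay beyond it and Fdft1 and Lss did not.

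Set side by side, the SD contrast was more negative in G93A than in WT mice for each member. The difference, G93A minus WT, was -0.36 for Idi1, -0.14 for Fdft1, -0.42 for Sqle, -0.09 for Lss, -0.45 for Cyp51 and -0.40 for Dhcr7 on the log2 scale, with a median of -0.38. The same numbers are the differences between the SD and vehicle comparisons of genotype. They were not tested, since each rests on 4 single libraries.

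A single order describes the members: both WT libraries above G93A vehicle, and G93A vehicle above G93A + SD. All 6 followed it, against 23.7% of all names. The order was read from the members' own values, so their count is a description and no support. All 6 also followed it when each step had to be at least 1.1-fold, which 1082 names did, and after median-ratio scaling, where 3735 did.

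**Figure D2:**
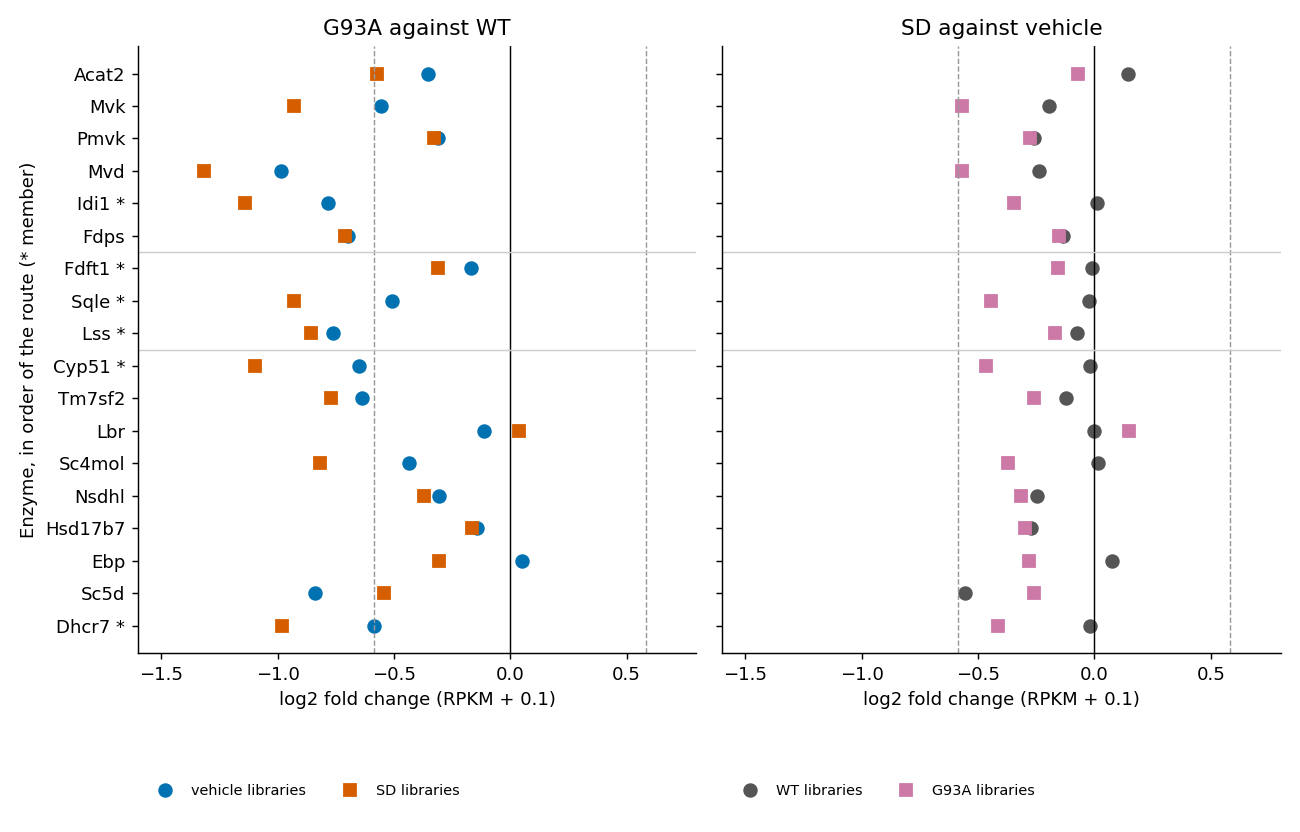
Log2 fold change (RPKM + 0.1) of the members and the other enzymes described, in the order of the route, members marked with an asterisk. The left panel shows G93A against WT in vehicle libraries (circles) and SD libraries (squares), and the right panel SD against vehicle in WT (circles) and G93A (squares). Dashed lines stand at 1.5-fold and grey lines divide the stages. In the left panel all 6 members lie below 0 in both series, and WT points in the right panel for the members lie within 0.0738 of 0.

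The rest of the route can be read around the members. A further 14 enzymes were listed, and all have a row. Of these, 6 passed 1.5-fold on the lower side between genotypes with vehicle (median log2 fold change -0.49) and 7 with SD (median -0.64). For SD against vehicle, the median was -0.16 in WT mice and -0.28 in G93A mice. Together with the members, 9 of 20 and 12 of 20 enzymes were at least 1.5-fold lower in the comparisons of genotype with vehicle and with SD. The shares of all names were 4.34% and 7.85%.

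Before Idi1, the mevalonate arm starts with Acat2, a thiolase, at 25.7 and 28.4 RPKM in WT and 20.1 and 19.1 RPKM in G93A mice, and 45.3% of its windows occur in other genes, most of them in Acat3. Mvk, mevalonate kinase, was 11.2 and 9.76 RPKM in WT and 7.59 and 5.08 RPKM in G93A mice. Its log2 fold change was -0.55 with vehicle and -0.93 with SD. Mvd, the decarboxylase that makes the substrate of Idi1, was 14.2 and 12.0 RPKM in WT and 7.11 and 4.76 RPKM in G93A mice (-0.99 and -1.32). Pmvk, phosphomevalonate kinase, differed less (-0.31 and -0.33). Fdps, which follows Idi1, was lower (-0.70 and -0.71), but 81.2% of its windows occur in other genes. Over the 7 enzymes of this arm, Idi1 included, the median log2 fold change was -0.65 with vehicle and -0.89 with SD.

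From squalene to lanosterol the route holds the members Fdft1, Sqle and Lss, whose median was -0.51 with vehicle and -0.85 with SD. Between Cyp51 and Dhcr7 the enzymes were mixed. Sc4mol, the older symbol of the sterol methyl oxidase Msmo1, was the most abundant of the 14 at 88.4 and 89.3 RPKM in WT and 65.4 and 50.6 RPKM in G93A mice. Its pattern resembled that of its neighbour Cyp51, with log2 fold changes of -0.43 and -0.82 between genotypes and 0.01 for WT + SD against WT vehicle. Tm7sf2, a sterol reductase, was lower in both comparisons of genotype (-0.64 and -0.77). Lbr, an alternative reductase for the same step that also anchors chromatin at the nuclear lamina, did not differ by 1.5-fold in any comparison (5.31 and 5.30 RPKM in WT and 4.90 and 5.45 RPKM in G93A mice). Nsdhl (-0.31 and -0.37), Hsd17b7 (-0.14 and -0.17) and Ebp (0.05 and -0.31) also stayed within 1.5-fold in both.

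Sc5d, which makes the substrate of Dhcr7, was 55.2 and 37.5 RPKM in WT and 30.8 and 25.8 RPKM in G93A mice. Its SD contrast in WT mice (log2 fold change -0.56, short of 1.5-fold) was the most negative of the 20 enzymes. Over the 10 enzymes from lanosterol to cholesterol, the median was -0.51 with vehicle and -0.66 with SD.

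The order of the members was followed by 11 of the 14 other enzymes, against 23.7% of all names. Lbr, Hsd17b7 and Ebp were the exceptions. With each step at least 1.1-fold, 8 of the 14 followed it, and 12 after median-ratio scaling.

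Genes on other branches from farnesyl pyrophosphate, which lead to ubiquinone, dolichol and protein prenylation, were measured too. None of 8 was past 1.5-fold in either comparison of genotype, with a median log2 fold change of -0.07 with vehicle and -0.29 with SD. After median-ratio scaling, 1 of the 8 was 1.5-fold lower in G93A with vehicle.

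In the SREBP system, which senses sterols and switches the members on, 1 of 7 genes was 1.5-fold lower in each comparison of genotype. This was Insig1, itself an SREBP target whose protein holds SREBP in the endoplasmic reticulum, at 47.6 and 49.6 RPKM in WT and 25.6 and 25.4 RPKM in G93A mice (-0.89 and -0.97). Srebf2, the gene of SREBP2, was 35.9 and 32.5 RPKM in WT and 28.9 and 24.5 RPKM in G93A mice (-0.31 and -0.41, neither past 1.5-fold). Srebf1, whose products act mainly on fatty acid genes, was 1.5-fold higher in G93A + SD than in WT + SD (15.2 and 13.0 RPKM in WT and 18.2 and 21.2 RPKM in G93A mice).

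Among genes of sterol uptake and transport, Stard4, a sterol carrier, was 14.5 and 13.5 RPKM in WT and 8.06 and 5.49 RPKM in G93A mice (-0.84 and -1.28). Mylip, listed with it but known as a gene that LXR switches on, had the other direction, at 2.15 and 2.60 RPKM in WT and 5.96 and 6.75 RPKM in G93A mice (1.43 and 1.34).

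Among 10 enzymes of fatty acid synthesis, 1 was 1.5-fold lower with vehicle (median log2 fold change -0.32), and 5 were lower and 1 higher with SD (median -0.50). Scd1, a desaturase, was the one lower in both, at 198 and 166 RPKM in WT and 130 and 90.4 RPKM in G93A mice. Acly (-0.46 and -0.61), Fasn (-0.29 and -0.60) and Acss2 (-0.54 and -0.68) passed 1.5-fold with SD and not with vehicle.

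Genes of the opposing arm, LXR targets and sterol efflux, counted 7 of 13 at least 1.5-fold higher and none lower in each comparison of genotype, with a median of 0.65 with vehicle and 0.92 with SD. Apoe, the main apolipoprotein of the central nervous system, was 586 and 461 RPKM in WT and 1975 and 2975 RPKM in G93A mice. Abca1, a cholesterol exporter, was 4.90 and 4.39 RPKM in WT and 17.9 and 31.9 RPKM in G93A mice. Npc2, which moves cholesterol out of lysosomes, was 35.2 and 35.4 RPKM in WT and 70.4 and 75.2 RPKM in G93A mice. Soat1, which esterifies cholesterol, was at least 1.5-fold higher in both comparisons (log2 fold change 1.06 with vehicle). Across the 4 libraries Apoe and Abca1 thus stood highest where the members stood lowest. The list as a whole did not share this rise with SD. When SD was set against vehicle in G93A mice, Apoe and Abca1 were the only 2 of the 13 past 1.5-fold. The list median there was 0.06, with 9 genes higher and 4 lower by any amount.

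**Figure D3:**
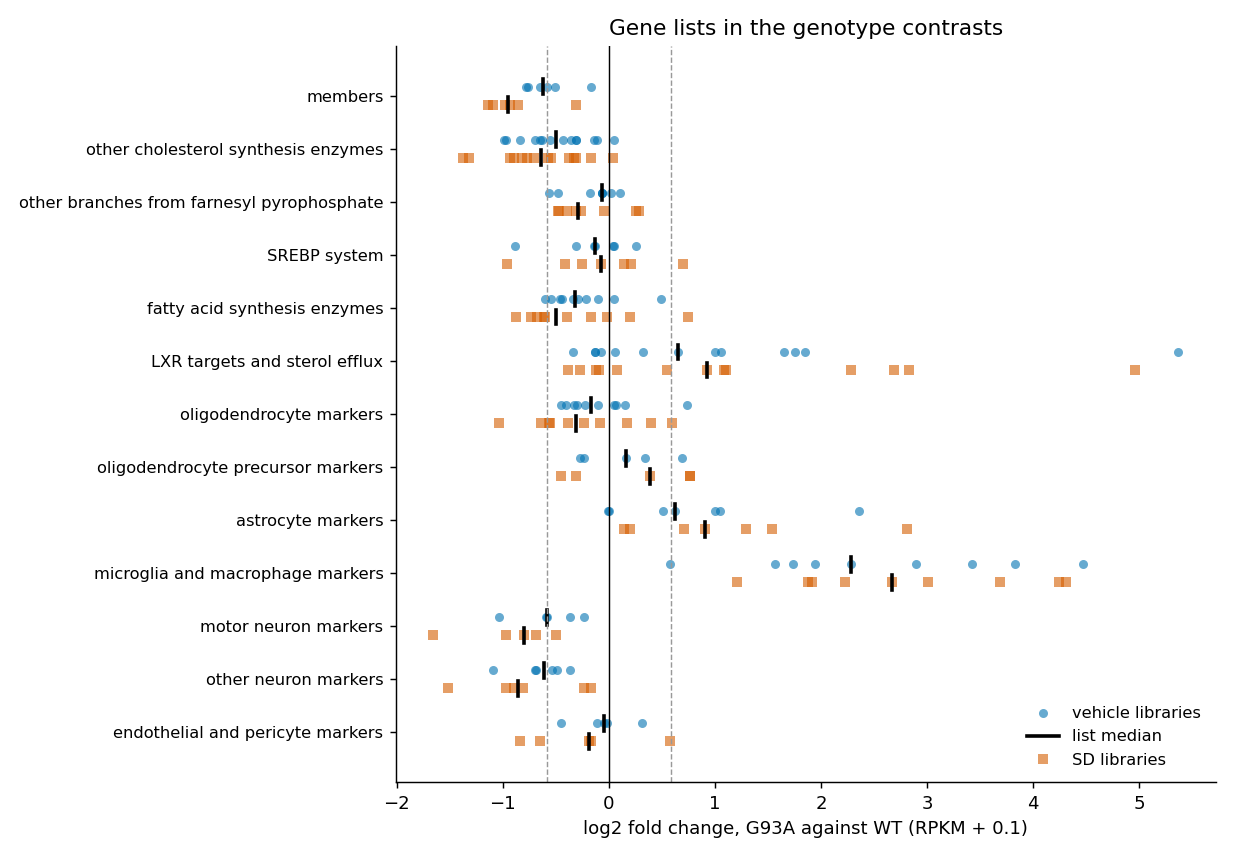
Log2 fold change (RPKM + 0.1) of G93A against WT for genes of at least 1 RPKM on average, by list, in vehicle libraries (circles) and SD libraries (squares). Black bars are list medians and dashed lines stand at 1.5-fold. The members' medians of -0.62 and -0.96 are near those of the neuron lists, and the microglia medians are 2.28 and 2.67.

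Markers of several cell types also differed between the genotypes, and their part in the members' values was not tested. Oligodendrocyte markers, the most abundant set, summed to 9274 and 9566 RPKM in WT and 7741 and 7134 RPKM in G93A mice. None of the 10 was 1.5-fold lower with vehicle and 2 were with SD, with 1 higher in each, and the medians were -0.17 and -0.31. Mbp, myelin basic protein, was 4669 and 4662 RPKM in WT and 3714 and 3575 RPKM in G93A mice. Precursor markers had medians of 0.16 and 0.39, with 1 of 5 at least 1.5-fold higher with vehicle, 2 with SD and none 1.5-fold lower.

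Motor neuron markers summed to 406 and 384 RPKM in WT and 220 and 143 RPKM in G93A mice. Their order is that of the members, and the sums of oligodendrocyte markers and of other neuron markers have it too. Of the 7 motor neuron markers, Isl1 and Mnx1 were under 1 RPKM, and 2 of the other 5 were 1.5-fold lower with vehicle and 4 with SD (medians -0.58 and -0.80). Markers of other neurons summed to 1517 and 1542 RPKM in WT and 945 and 819 RPKM in G93A mice. Rbfox3 has no row, and of the other 6, 3 were lower with vehicle and 4 with SD (medians -0.61 and -0.85). Snap25, a synaptic protein, was 1268 and 1292 RPKM in WT and 782 and 661 RPKM in G93A mice. The neuron lists had medians close to those of the members.

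Astrocyte markers summed to 1031 and 968 RPKM in WT and 3107 and 3684 RPKM in G93A mice, with 4 of 7 at least 1.5-fold higher with vehicle, 5 with SD and none lower. Microglia and macrophage markers summed to 93.4 and 79.3 RPKM in WT and 678 and 677 RPKM in G93A mice, with 8 and 9 of 9 higher. Endothelial markers summed to 31.2 and 28.6 RPKM in WT and 30.4 and 23.3 RPKM in G93A mice, with none of 5 lower with vehicle and 2 with SD. Schwann cell markers summed to 6.79 and 7.43 RPKM in WT and 11.7 and 13.4 RPKM in G93A mice, and 1 of 5 had a mean of at least 1 RPKM. No listed marker was at 0 in any library. The Sod1 row, 29.0 and 31.1 RPKM in WT and 31.9 and 29.3 RPKM in G93A mice, refers to the mouse gene and does not check the human transgene.

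The genes whose profile over the 4 libraries was nearest to the mean profile of the members are named here as a description. Likeness was the Euclidean distance between log2 profiles, each centred on its own mean, over 8841 other genes whose mean was 5 RPKM or more. Among the nearest were Mtap1a (distance 0.0309), a microtubule-associated protein also called Map1a, Klc2 (0.0329), a kinesin light chain, Vstm2b (0.0377) and Pacsin1 (0.0381), an endocytic protein of neurons. Klc2 was 75.7 and 74.8 RPKM in WT and 50.2 and 39.3 RPKM in G93A mice.

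The members' own distances from that mean ran from 0.0774 for Dhcr7 and 0.0796 for Sqle through 0.143 for Lss, 0.172 for Cyp51 and 0.232 for Idi1 to 0.507 for Fdft1. For Dhcr7, 33 non-members were as near or nearer, and for Fdft1 1670 were. A profile over 4 libraries has few degrees of freedom, and these distances describe likeness in these libraries.

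**Figure D4:**
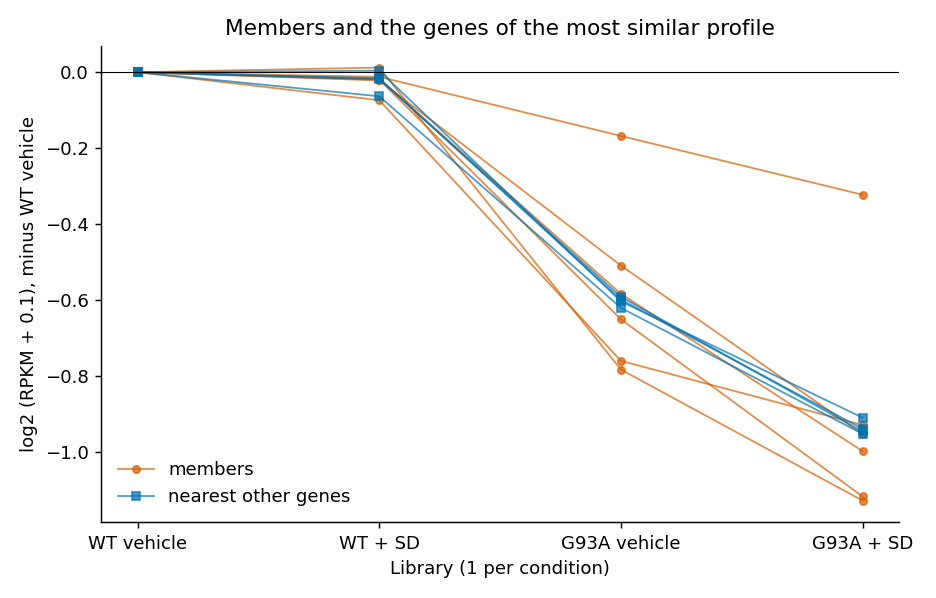
Log2(RPKM + 0.1) minus its WT vehicle value for the 6 members (circles) and the other genes named for a similar profile (squares) in the 4 libraries, 1 value per library. The uppermost circle line, Fdft1 (distance 0.507 from the mean of the members), stays above the squares in both G93A libraries.

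Depth was similar across libraries. Taking the most frequent low product of RPKM and transcript length as 1 fragment, each library held an estimated 36800000 to 38600000 counted fragments, and the members an estimated 373 to 6890 each per library. The RPKM columns summed to 376852 to 393328, and median-ratio size factors ran from 0.977 in WT vehicle to 1.03 in G93A + SD. That scaling lowers G93A values relative to WT and left 4 of 6 members at least 1.5-fold lower with vehicle and 5 of 6 with SD, against 781 and 1299 of 12980 names.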

How the data were processed

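Lumbar spinal cord RNA of each genotype (WT, G93A) and treatment (vehicle, SD) was sequenced as 1 library per condition. By the study's methods, polyA RNA was sequenced with 53 bp reads, aligned to GRCm38 (mm10) with STAR and counted with HTSeq on Ensembl genes, with strand use not stated. The table deposited by the authors lists RefSeq transcripts with symbols, and the step to its values is not given in the sources used here. The deposited values were treated as RPKM, inferred from the values because the header names no unit. The authors' ratio columns were not used.

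Rows of a symbol were averaged (23750 rows, 18674 names, 3257 with more than 1 row). Fold changes were taken on RPKM + 0.1, a gene was counted from 1.5-fold, and names with a mean of at least 1 RPKM over the 4 libraries formed the background. No test was run, and the fold calculation was tested on simulated data. Members and lists were chosen with earlier results of these data known. Members and other enzymes of the route were named, with at most 4 genes past 1.5-fold of each other pathway list, at most 2 of each marker list, Srebf2, Insig1 and the 5 nearest profiles, and a few genes of this rule and of the lists are not reported here. Transcript lengths, found for 97.0% of rows, positions and shared 53-base windows came from GENCODE M21. Promoters came from the RefSeq table. Other scalings, pseudocounts (none or 1), filters (none or 5 RPKM), rows and thresholds (2-fold and 1.2-fold) were tried. Scripts ran on Python 3.11.15 with pandas 2.3.3, numpy 2.4.6 and, for figures, matplotlib 3.10.9.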

Additional observations from a re-analysis of the deposited data

Results flagged for a closer look

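Some genes had opposite signs under the same contrast, several of them with a value near 0 on one side. None of these differences was tested, since each condition has 1 library. Values are log2 differences, the SD contrast in G93A minus that in WT, which equals the genotype contrast with SD minus that with vehicle. Among the members, Idi1 was higher with SD in WT by 0.01 and lower with SD in G93A (-0.34), a difference of -0.36. Among the other enzymes, SD gave opposite signs in WT and G93A for Acat2 (difference -0.22), Sc4mol (-0.39), Ebp (-0.36) and Lbr (0.15). The SD contrast in WT itself was 0.15 for Acat2, 0.01 for Sc4mol, 0.07 for Ebp and -0.0003 for Lbr. For Lbr (0.15) and Ebp (-0.36) the comparison of genotypes also had opposite signs with vehicle and with SD. In sterol regulation and efflux, the difference between the SD contrasts was -0.075 for Insig1, 0.44 for Srebf1, 0.94 for Apoe and 0.98 for Abca1. Among cell type markers it was 0.45 for Gfap, 0.41 for Tyrobp, -0.27 for Snap25, -0.21 for Slc17a6, -0.12 for Flt1, 0.080 for Drp2 and 0.48 for Egr2. For Pacsin1, a nearest profile, it was -0.31, with an SD contrast of 0.004 in WT itself.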

How the results depend on the processing

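No member changed direction between genotypes under the other scaling, pseudocounts, filters or row choice. With a 2-fold threshold, 0 members were counted lower between genotypes with vehicle and 2 with SD, against 0.547% and 1.52% of all names. With a 1.2-fold threshold, 5 were lower in the first of these, against 18.2% of names, and 4 in G93A + SD against G93A vehicle, against 7.06% of names. After median-ratio scaling the members' medians were -0.68 with vehicle and -1.02 with SD. Dhcr7 with vehicle was the one member whose own fold change crossed 1.5-fold under these settings, with values of -0.65 after scaling and -0.59 without a pseudocount. Over single genes, lists and all names, 464 values held, 31 were larger counts or newly past 1.5-fold, and 23 were smaller counts or no longer past it. The number of all names 1.5-fold lower depended on the floor: in G93A vehicle against WT vehicle it was 991 with no filter, 325 with a floor of 5 RPKM and 332 with a pseudocount of 1. In WT + SD against WT vehicle it was 522, 48 and 66, and in G93A + SD against G93A vehicle 476, 54 and 66. The order itself, and its counts with 1.1-fold steps and with scaling, were added after the data were seen. No paired analysis was possible because each condition has 1 library, so no library could be left out either, and differences between animals, dissections and library preparations cannot be told apart from genotype and SD.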
